A study of Mus musculus with 2 samples.

Results

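The genes described here encode the respiratory chain (complexes I to IV) and the ATP synthase (complex V) of mitochondria. They were taken by gene symbol from the array files: names that start with Nduf, Uqcr, Atp5 or Cox4 to Cox8, and the succinate dehydrogenase genes Sdha, Sdhb, Sdhc and Sdhd. The rule found 85 of 22009 genes and transcripts named on the array, read by 120 probes. By symbol alone, 38 of these genes were counted under complex I, 4 under complex II, 7 under complex III, 19 under complex IV and 17 under complex V. The prefixes also take in 6 genes that do not encode a subunit: the assembly factors Ndufaf1 and Ndufaf2, the supercomplex factor Cox7a2l, and Cox4nb, Atp5s and Atp5sl, which carry an older name only. By its symbol Ndufa4 was counted under complex I, as an accessory subunit, though its protein is now assigned to complex IV. Probes saturated in the scanner were set apart throughout.

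RNA came from G1E-ER-GATA-1 cells, a mouse erythroid line that has no GATA-1 of its own and carries a fusion of GATA-1 that becomes active with estradiol. Cells received siRNA against Lmo2, which encodes a bridging protein of the erythroid transcription factor complex that GATA-1 joins, or control siRNA, and both arms then had 24 h of estradiol. Each of 2 two-colour Agilent arrays held both arms, with LMO2 siRNA in Cy3 and control siRNA in Cy5 on both, so a dye effect and the siRNA effect cannot be told apart. In the labels the arrays are replicates 1 and 2, without naming separate cultures, so the p-values measure only the spread between these samples, which may be technical. The study asked how lowering Lmo2 alters transcript levels during the maturation that GATA-1 drives.

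Complexes I and II pass electrons from NADH and succinate to ubiquinone, complex III hands them to cytochrome c, and complex IV (cytochrome c oxidase) passes them to oxygen. Complexes I, III and IV pump protons across the inner membrane, and the ATP synthase uses that gradient to make ATP. Maturing red cell precursors need mitochondria for haem and iron-sulfur cluster synthesis and clear them at the end of maturation. Several complex IV subunits exist as isoforms, of which Cox6a2, Cox7a1 and Cox8b are known from heart and skeletal muscle.

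The probe for Cox7a1, the gene with the largest difference among the 64 unsaturated members, and its promoter are printed here, beside the promoters of its sister isoform gene Cox7a2 and of Uqcr (now Uqcr11). Promoters are the 250 bases before the RefSeq start on GRCm38.p6, 5′ to 3′ on the gene's strand. The capitals mark every match to the GATA motif AGATAA (its reverse, TTATCT) and to the GABPA motif CCGGAAGT (ACTTCCGG); the windows were also searched on both strands for the NRF1 motif GCGCATGCG (CGCATGCGC) and the ESRRA motif TCAAGGTCA (TGACCTTGA).
Cox7a1 probe: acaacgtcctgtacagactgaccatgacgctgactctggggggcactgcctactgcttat
Cox7a1 promoter, chr7:30183921-30184170, plus strand: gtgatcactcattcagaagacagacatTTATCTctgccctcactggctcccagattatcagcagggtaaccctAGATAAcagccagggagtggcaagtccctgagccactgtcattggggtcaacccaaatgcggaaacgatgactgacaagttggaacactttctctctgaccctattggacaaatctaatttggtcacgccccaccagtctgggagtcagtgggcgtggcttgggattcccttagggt
Cox7a2 promoter, chr9:79759854-79760103, minus strand: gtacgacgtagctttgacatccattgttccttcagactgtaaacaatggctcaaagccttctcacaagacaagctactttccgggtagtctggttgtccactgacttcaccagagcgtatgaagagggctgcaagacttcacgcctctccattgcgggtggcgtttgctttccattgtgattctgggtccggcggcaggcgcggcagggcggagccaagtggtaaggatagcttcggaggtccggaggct
Uqcr promoter, chr10:80406822-80407071, minus strand: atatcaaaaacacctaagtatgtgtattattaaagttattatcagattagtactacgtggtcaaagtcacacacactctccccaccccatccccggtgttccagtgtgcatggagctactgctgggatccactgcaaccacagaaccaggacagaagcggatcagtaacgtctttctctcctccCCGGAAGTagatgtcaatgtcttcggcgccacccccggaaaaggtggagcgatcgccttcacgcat

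Promoters were found in RefSeq for 70 of the 85 genes, as 76 windows of 300 bases (250 before and 50 after the start). The NRF1 motif stood in 8 windows (Atp5g2, Atp5k, Atp5l, Cox6a1, Ndufa8, Ndufa11, Uqcr and Uqcrc1), which is 10.5% of them against 1.75% of all 32851 windows in the table. The GABPA motif was in 6.58% against 3.89%, the ESRRA motif in 2.63% against 0.423%, and the GATA motif in 7.89% against 11.2%. No motif contains another. Of the genes that rose by the rule given below, Cox7a1 had the GATA motif and Uqcr the GABPA and NRF1 motifs, the latter not wholly inside the printed bases, and the Cox7a2 promoter printed above held none of the motifs searched. These are matches of letters in a fixed window and are not evidence that a factor binds there.

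The targeted gene, Lmo2, had log2 ratios of -1.82 and -2.02 (-1.92 ± 0.14; adjusted p = 3.37e-21, limma). Between 55.8% and 68.2% of gene spots were well above background in a channel. Of 11 erythroid marker genes, 10 are on the array and all 10 were measured, with Hbb-b1 and Hba-a1 saturated. Although the labels call the cells ES cells, the 7 pluripotency markers read between 41.6 and 149 intensity units. Nanog and Sox2 were not well above background in any channel. Pou5f1, Dppa5a, Tdgf1 and Utf1 were measured, and of these 4 Dppa5a was called higher (0.38, adjusted p = 1.59e-06, limma) and the other 3 were not called. Of the 8 unsaturated erythroid markers, 1 was called higher (Epor, 0.32) and 4 lower, among them Slc4a1 (-0.49) and Hemgn (-0.51). Of these, Hemgn alone fell in all 3 sets of values described below. Over all unsaturated genes, 23.7% were called higher and 27.7% lower, and 5.41% rose and 2.47% fell in all 3 sets. Of 7 megakaryocyte markers, Gp1ba (1.18) and Gp5 (0.62) rose in all 3 sets and Gp9 (-0.31) fell, with a summed signal of 2259 to 2272 units with LMO2 siRNA and 2615 to 2801 with control before dye normalization. Of 7 granulocyte and macrophage markers, Cd68 (0.55) and Ltf (0.16) rose, both from dim probes. With LMO2 siRNA Cd68 read 108 and 112 units against 111 and 100 with control, and Ltf 64.7 and 58.8 against 78.8 and 66.6. Mpo, Csf1r, Itgam and Lyz2 were measured and not called, and Elane was not well above background. Of 5 lymphocyte markers Cd3e (-0.34) fell, and 1 of 4 endothelial markers was measured, Tek (-0.02), which was not called. Their part in the members' values was not tested. As in any bulk sample, fewer cells of a type and less RNA per cell cannot be told apart.

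Ratios are LMO2 siRNA divided by control throughout, given per array and then as mean log2 ratio ± SD (n = 2). A gene was called higher or lower where limma's adjusted p was under 0.05 over all 14315 measured genes. For the background-corrected signals, with 28 prior and 1 residual degrees of freedom, that p rests mostly on variance pooled over genes, and the number of arrays limits the precision. A gene is said to have risen or fallen only if it was unsaturated and was called the same way in 3 sets of values: background-corrected signals, the same signals divided by the scanner's factor for position on the array, and the scanner's own processed signals. For processed signals the prior had only 2.2 degrees of freedom, so less variance is pooled there. Missing the threshold in that set therefore does not show that a ratio is absent.

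Of the 85 genes, 82 were measured, and Cox4i2, Cox7b2 and Cox8b were not well above background on both arrays in either channel. Of the 82, 18 were measured through a saturated probe, which is 21.95% against 1.663% of all measured genes. The unsaturated members had a median log2 brightness (mean of both channels) of 13.67, against 9 over all unsaturated genes. The shares and medians over all genes thus come from mostly dimmer genes. Among the 64 unsaturated genes, 46 were called, 25 higher and 21 lower, where 51.3% of all 14077 unsaturated genes were called, 23.7% higher and 27.7% lower. The median over members was 0.07 on the log2 scale, 0.02 on the first array and 0.12 on the other, against -0.02 over all unsaturated genes. By the rule over 3 value sets, 3 of the 64 rose (Cox7a1, Uqcr and Cox8c) and 0 fell, against a background of 5.41% and 2.47%, so the share that rose was near that of the array. Cox8c passed the detection filter only through the LMO2 siRNA channel, so its place among the 3 does not set it apart. At an unadjusted limma p under 0.05 in each set, 10 were higher and 1 lower, against 13.4% and 12.1% of all unsaturated genes. By the single sets, 20 were called higher and 3 lower after the position factor (background 23.1% and 20.7%), and 3 higher and 0 lower in processed signals (background 5.96% and 3.47%). At the unadjusted p the processed signals gave 12 higher and 1 lower, against 18.1% and 20.7%. In all 3 sets, 61 of the 64 stayed under 1.5-fold in either direction, the exceptions being Cox7a1, Cox6a2 and Cox8c.

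**Figure D1:**
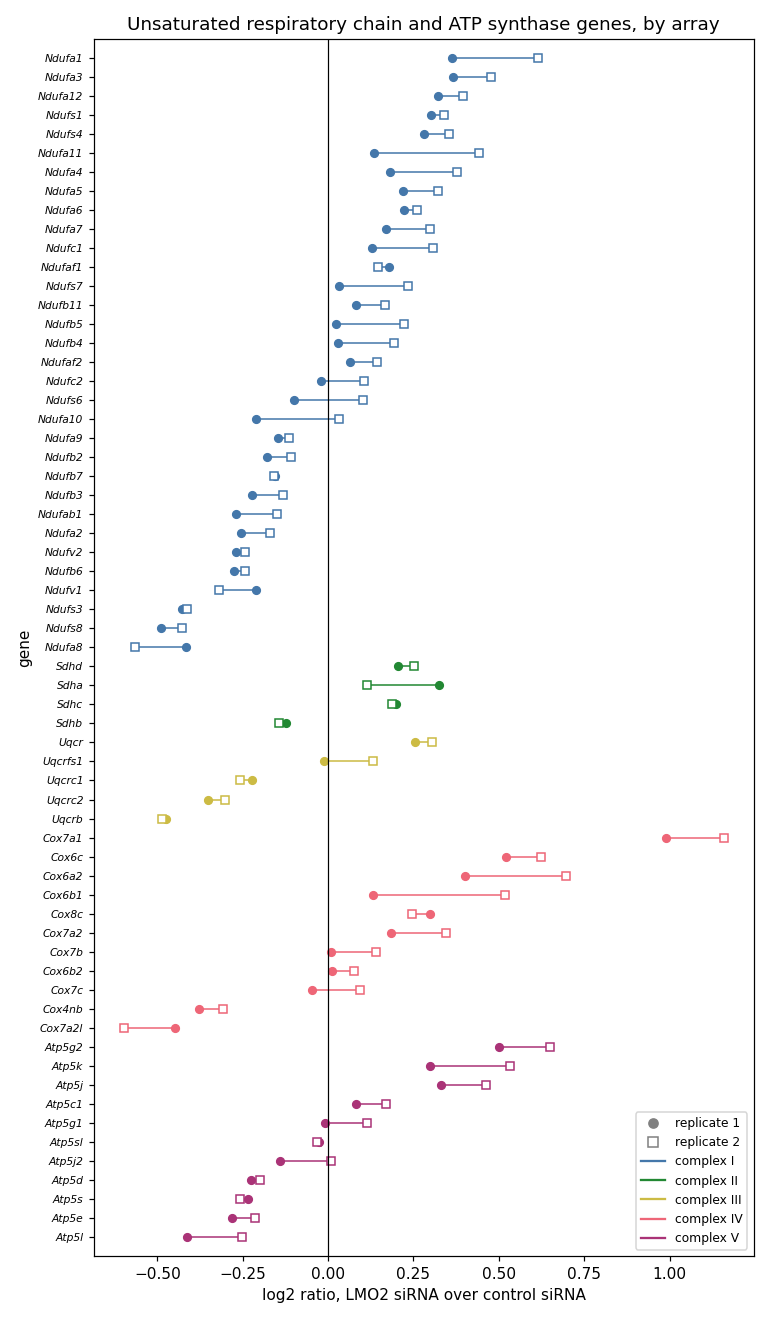
Log2 ratio of LMO2 siRNA over control (x axis) for the unsaturated genes (y axis; all of the 64 but 1), coloured by complex; filled circles are replicate 1, open squares replicate 2, and a line joins the arrays. Cox7a1 lies far to the right of all others, at 0.99 and 1.16, and each complex has genes on both sides of 0.

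Cox7a1 encodes the muscle and heart isoform of a small nuclear-encoded complex IV subunit. On replicates 1 and 2 its spot had a signal of 13365 and 12555 intensity units for LMO2 siRNA and 13315 and 10780 for control siRNA. After normalization the log2 ratio was 0.99 and 1.16, a mean of 1.07 ± 0.12 or 2.10-fold higher (adjusted p = 1.4e-15, limma). Both arrays lay far above 0, and the value was 0.99 after the position factor and 1.01 in processed signals (adjusted p = 0.0254). It was the only unsaturated member called higher with a mean ratio past 1.5-fold in the first set. Without loess, with each array centred on its median, its log2 ratio was 0.34.

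Its sister isoform Cox7a2, the form found in most tissues, did not pass in all sets. Cox7a2 read 12438 and 12211 units with LMO2 siRNA against 21816 and 18601 with control, a log2 ratio of 0.19 and 0.35 (0.27 ± 0.11, adjusted p = 2.92e-04). After the position factor it was 0.12 (adjusted p = 0.121). Cox7a2l, a related protein that helps join complexes III and IV, went the other way in the first set, at -0.45 and -0.60 (-0.52 ± 0.11, adjusted p = 8.13e-09), but was -0.13 after the position factor (adjusted p = 0.0775). The differences between these 3 genes were not tested against each other.

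Uqcr, a small subunit of complex III, read 20051 and 17680 units with LMO2 siRNA and 34132 and 28068 with control. The log2 ratio was 0.25 and 0.31, a mean of 0.28 ± 0.04 (adjusted p = 1.08e-04), with 0.39 after the position factor and 0.42 in processed signals (adjusted p = 0.0485). Both arrays were above 0 by several times their spread, but the size is under 1.5-fold. Centring each array on its median in place of loess turned it to -0.49, where the median of all unsaturated genes was -0.41.

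Cox8c, a complex IV isoform known mainly from testis, is dim. It read 64.1 and 53.9 units with LMO2 siRNA and 69.7 and 61.0 with control, and its control channel was well above background on 1 array only, so it entered the test through the LMO2 siRNA channel. Its log2 ratio was 0.30 and 0.25 (0.27 ± 0.04, adjusted p = 1.53e-04), 0.18 after the position factor and 1.36 in processed signals. Both arrays were on the same side of 0, while the size differed widely with how background was subtracted.

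**Figure D2:**
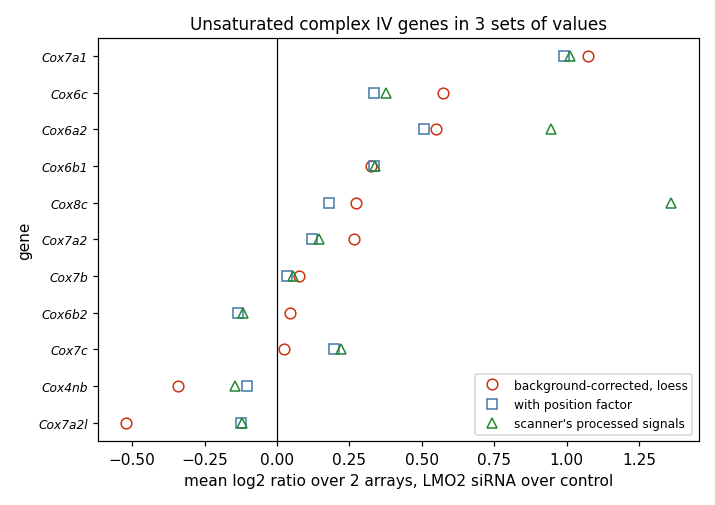
Mean log2 ratio over both arrays (x axis) for the 11 unsaturated complex IV genes (y axis) in the 3 sets of values, each with its own symbol. Cox7a1 keeps nearly the same place in all sets (1.07, 0.99 and 1.01), while Cox8c moves from 0.27 to 1.36 and Cox7a2l from -0.52 to -0.12.

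For each complex below, the shares over all unsaturated genes were 23.7% called higher and 27.7% called lower in the first set. At an unadjusted limma p under 0.05 in each of the 3 sets, those shares were 13.4% and 12.1%. In complex I, 33 unsaturated genes gave 12 called higher, 11 lower and 10 neither, with a median log2 ratio of 0.10 (0.04 after the position factor). Of these 33, 0 rose or fell (3 higher and 1 lower at the unadjusted p in each set). The 7 core subunits carried by nuclear genes gave 1 called higher and 4 lower, with a median of -0.26 that came to -0.02 after the position factor. Ndufs8, an iron-sulfur subunit near the ubiquinone site, had log2 ratios of -0.49 and -0.43 (-0.46 ± 0.04, adjusted p = 5.74e-08). Both arrays were below 0, but the position factor brought it to -0.10 (adjusted p = 0.174).

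Ndufs3, a core subunit of the arm that faces the matrix, stayed lower after the position factor. Its signal was 12106 and 11328 units with LMO2 siRNA against 32721 and 29407 with control, a log2 ratio of -0.43 and -0.41 (-0.42 ± 0.01, adjusted p = 2.49e-07). The value was -0.24 after the position factor (adjusted p = 0.00433) and -0.22 in processed signals (adjusted p = 0.0981), so it was called in 2 of the 3 sets. Ndufv1, which binds NADH and FMN, was -0.21 and -0.32 (-0.27 ± 0.08) and its partner Ndufv2 -0.27 and -0.24 (-0.26 ± 0.02). After the position factor Ndufv1 turned to 0.08 and Ndufv2 was -0.14, with adjusted p = 0.264 and 0.0558.

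Ndufs1, the largest iron-sulfur subunit, was the core gene called higher, at 0.30 and 0.34 (0.32 ± 0.03, adjusted p = 1.75e-05), and missed the threshold after the position factor (0.10, adjusted p = 0.160). Ndufs7, next to the ubiquinone site, was 0.03 and 0.23 (adjusted p = 0.0620). No core subunit was called the same way in all 3 value sets.

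Accessory subunits of complex I surround the core. The 24 unsaturated genes counted as such by symbol gave 10 called higher and 7 lower, with a median of 0.12. The largest were Ndufa1, a small membrane subunit, at 0.36 and 0.62 (0.49 ± 0.18, adjusted p = 6.79e-08), and Ndufa8, a subunit of the intermembrane space side, at -0.42 and -0.57 (-0.49 ± 0.11, adjusted p = 2.55e-08). Ndufa1 kept its call after the position factor (0.29, adjusted p = 0.00516) and Ndufa8 lost it (-0.13, adjusted p = 0.0684). Ndufa3 had 0.37 and 0.48 (0.42 ± 0.08, adjusted p = 3.00e-07) and was 0.18 after the position factor (adjusted p = 0.0241). In processed signals, none of these 3 passed (adjusted p = 0.109 for Ndufa1, 0.249 for Ndufa8 and 0.146 for Ndufa3).

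Complex II is the succinate dehydrogenase of the citric acid cycle, and all 4 of its genes were measured without saturation. Sdha, the flavoprotein, had log2 ratios of 0.33 and 0.11 (0.22 ± 0.15, adjusted p = 0.00244). Sdhb, the iron-sulfur subunit, had -0.12 and -0.14 (-0.13 ± 0.02, adjusted p = 0.0471) and turned to 0.08 after the position factor. The membrane anchors Sdhc and Sdhd were 0.19 ± 0.01 (adjusted p = 0.00461) and 0.23 ± 0.03 (adjusted p = 0.00100). Thus 3 of 4 were called higher and 1 lower, but after the position factor Sdhc alone passed (0.15, adjusted p = 0.0437), and in processed signals 0 of 4 did, also at an unadjusted limma p under 0.05.

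In complex III, 5 genes were unsaturated, of which Uqcr was called higher, 3 lower and Uqcrfs1 neither. The symbol rule leaves out Cyc1, the cytochrome c1 of this complex, so these counts and the median do not hold it. Cyc1 was called higher, at 0.09 and 0.35 (0.22 ± 0.18, adjusted p = 0.003, limma), and was 0.03 after the position factor. Uqcrb, a small subunit, had the lowest ratio, at -0.47 and -0.49 (-0.48 ± 0.01, adjusted p = 2.23e-08). The core proteins Uqcrc1 and Uqcrc2 were -0.24 ± 0.03 (adjusted p = 6.07e-04) and -0.33 ± 0.04 (adjusted p = 1.38e-05). These lower values of the first set did not pass after the position factor, where Uqcrb was -0.15 (adjusted p = 0.0517), Uqcrc1 -0.09 and Uqcrc2 0.09. Uqcrfs1, the Rieske iron-sulfur protein, was -0.01 and 0.13. The complex's median went from -0.24 to 0.09 with the position factor.

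Complex IV had a median of 0.27 over 11 unsaturated genes (0.18 after the position factor), with 6 called higher, 2 lower and 3 neither. Beside Cox7a1, the largest ratios were those of Cox6c, a small subunit, at 0.52 and 0.62 (0.57 ± 0.07, adjusted p = 1.04e-09), and Cox6a2, the muscle isoform of subunit VIa, at 0.40 and 0.70 (0.55 ± 0.21, adjusted p = 1.41e-08). Both kept their call after the position factor, at 0.33 (adjusted p = 8.01e-04) and 0.51 (adjusted p = 1.94e-04), and missed it in processed signals (adjusted p = 0.0614 and 0.0543). Cox6a2 was dim, at 127 and 150 units with LMO2 siRNA and 144 and 135 with control.

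Among the other isoforms, Cox6b1, the common form of subunit VIb, was 0.13 and 0.52 (0.32 ± 0.27, adjusted p = 1.40e-04) and the testis form Cox6b2 was 0.01 and 0.07 (adjusted p = 0.551). For Cox6b1 the arrays differed by more than the mean itself. Cox4i2, the lung isoform of subunit IV, read 56.9 and 48.4 units with LMO2 siRNA and 76.2 and 60.1 with control, and was well above background on 1 array in each channel. Cox8b read 45.1 to 60.6 units over both channels and was not well above background. The common isoforms Cox4i1, Cox6a1 and Cox8a were saturated, so their isoform ratios could not be measured.

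The ATP synthase had 11 unsaturated genes, with 3 called higher, 4 lower and 4 neither, a median of -0.03 (0.17 after the position factor), and 0 that rose or fell (2 higher and 0 lower at the unadjusted p in each set). Atp5g1, Atp5g2 and Atp5g3 encode the same mature ring protein, subunit c, from separate genes. Atp5g2 had 0.50 and 0.65 (0.57 ± 0.10, adjusted p = 1.24e-09), Atp5g1 -0.01 and 0.11 (0.05 ± 0.09, adjusted p = 0.476), and Atp5g3 was saturated. Atp5g2 kept its call after the position factor (0.33, adjusted p = 9.65e-04) and missed it in processed signals (adjusted p = 0.0677), while a further Atp5g2 probe had -0.03.

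Atp5k, subunit e of the membrane part, was 0.30 and 0.53 (0.42 ± 0.17, adjusted p = 9.26e-07), and Atp5j, coupling factor 6 of the stalk, 0.33 and 0.46 (0.40 ± 0.09, adjusted p = 9.44e-07). Atp5l, subunit g, was -0.41 and -0.25 (-0.33 ± 0.11, adjusted p = 1.62e-05). After the position factor Atp5k (0.25) and Atp5l (-0.16) kept their calls and Atp5j (0.13) did not. Atp5e, the small epsilon subunit, and Atp5s, no subunit, were singled out after their values were seen: both were called lower in the first set (-0.25 each) and higher after the position factor (0.17 each).

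Saturation set apart 18 genes: Ndufa13, Ndufb8, Ndufb9, Ndufb10 and Ndufs5 of complex I, Uqcrh and Uqcrq of complex III, Cox4i1, Cox5a, Cox5b, Cox6a1 and Cox8a of complex IV, and Atp5a1, Atp5b, Atp5f1, Atp5g3, Atp5h and Atp5o of complex V. Of these, 13 reached the limit on both arrays with control siRNA and on neither with LMO2 siRNA, where they read 27770 to 54533 units. Atp5f1, Cox5a and Ndufb8 were saturated in the control channel on 1 array only. Atp5b reached it on both arrays with control siRNA and on 1 with LMO2 siRNA, and Cox6a1 in both channels on both arrays (65235 and 65236 against 65257 and 65258 units). No fold is given for the 18. Where the control signal alone was saturated it is only a lower bound and the ratio to it an upper bound, and for Cox6a1, and for Atp5b on 1 array, neither signal was measured.

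**Figure D3:**
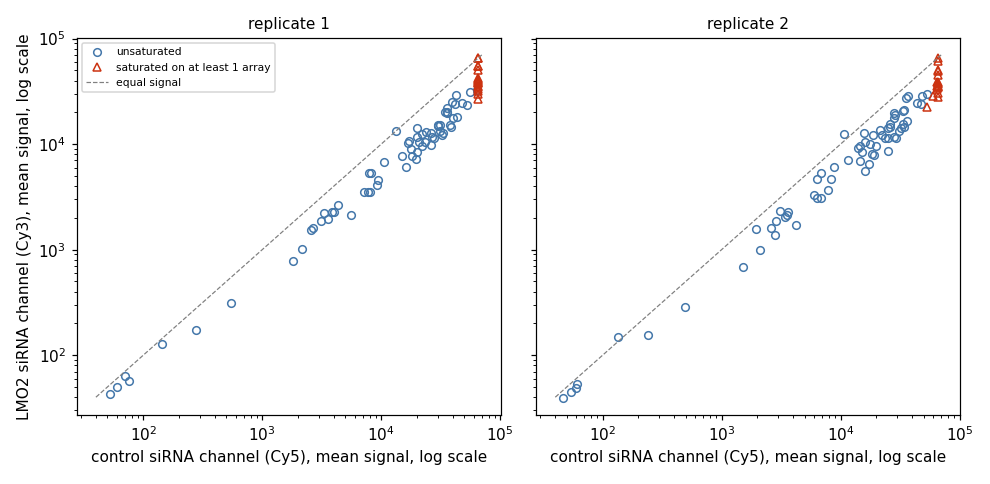
Mean spot signal with LMO2 siRNA (Cy3, y axis) against control siRNA (Cy5, x axis), both in intensity units on log axes before background correction and normalization, with 1 panel per array; blue circles are unsaturated genes, red triangles the genes saturated on at least 1 array, and the dashed line marks equal signal. The triangles pile up near 65257 units on the control axis, and Cox7a1 is among the few circles near the line.

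For 7 of the 18, a further unsaturated probe could be read. Those of Uqcrq (143 to 338 units), Ndufb8 (182 to 362) and Ndufs5 (53.1 to 77.3) are dim and, like that of Atp5f1, are designed to a clone sequence and not to the RefSeq transcript of the saturated probe, so they may read another transcript. In the fit on each gene's brightest unsaturated probe, Atp5a1, the catalytic-ring alpha subunit, was 0.19 and 0.10 (0.14 ± 0.06, adjusted p = 0.0340), and Atp5b, its beta partner, 0.27 and -0.01 (adjusted p = 0.0763). Atp5h was 0.20 ± 0.02 (adjusted p = 0.00409). The clone-sequence probe of Atp5f1, part of the peripheral stalk, gave -0.51 ± 0.06 (adjusted p = 1.17e-08), that of Uqcrq -0.37 ± 0.14 (adjusted p = 5.68e-06), that of Ndufb8 -0.14 ± 0.04 (adjusted p = 0.0327) and that of Ndufs5 -0.01 (adjusted p = 0.863). After the position factor, Atp5a1 (0.04), Atp5h (0.05), Atp5f1 (-0.13) and Uqcrq (-0.09) were no longer called, and Ndufb8 (-0.25) and Ndufs5 (-0.17) were called lower. The other 11 have no probe that measured them below saturation.

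The sign of a gene's ratio went with where its probe sits on the array, which has 532 rows. In rows 1 to 177, 0 of 25 unsaturated members were called higher and 20 lower, with a median log2 ratio of -0.25. Rows 178 to 354 held 19 members, of which 9 were called higher and 1 lower (47.4% and 5.26%). In rows 355 to 532, 16 of 20 were called higher and 0 lower, with a median of 0.27. No member of the first band was called higher, and none of the last was called lower.

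The unsaturated genes of the whole array showed the same order by row, with 7.09% called higher and 53.5% lower in rows 1 to 177, 21.8% and 21.9% in rows 178 to 354, and 44.2% and 5.81% in rows 355 to 532. The middle band is thus where calls were balanced over the array and more often higher than lower among the members, which was not tested. Over the 64 members the ratio correlated with row at r = 0.778, against 0.256 after the position factor and 0.223 in processed signals. Over all unsaturated genes r was 0.479, -0.0828 and 0.0874, each smaller in size than the members' r. That difference was not tested, and the members' median brightness lies well above that of all genes. Genes share the arrays and are not independent. After the position factor the medians in the outer bands were -0.03 and 0.10, and 29 of the 46 calls of the first set were lost. Cox7a1 lies in row 316, Cox8c in row 273 and Uqcr in row 262, all in the middle band, whose median was 0.12 before and 0.15 after the factor.

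**Figure D4:**
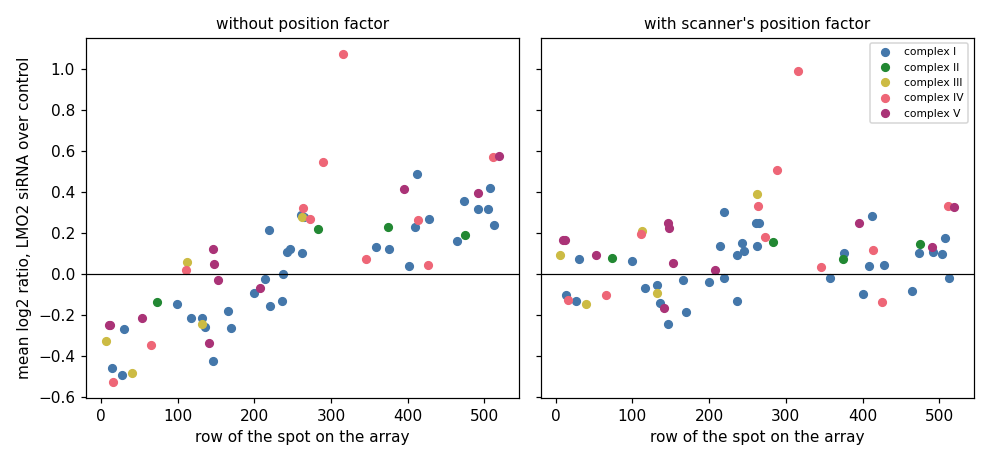
Mean log2 ratio of the 64 unsaturated genes (y axis) against the row of the probe's spot on the array (x axis), coloured by complex, without (left) and with (right) the scanner's position factor. The left panel climbs from left to right (r = 0.778), the right panel is nearly level (r = 0.256), and Cox7a1 stands near 1 in both.

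Probes of the same gene in different rows also gave different ratios, and the cause was not tested. The pair of Ndufa12 probes printed here, chosen after their values were seen, overlap by 40 of 60 bases, shown in capitals.
Ndufa12 probe in row 505: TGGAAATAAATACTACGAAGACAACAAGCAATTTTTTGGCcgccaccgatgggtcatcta
Ndufa12 probe in row 235: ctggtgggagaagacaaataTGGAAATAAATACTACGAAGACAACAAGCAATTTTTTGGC
The first had a log2 ratio of 0.29 (0.31 and 0.28 on the arrays) and the other -0.11 (-0.13 and -0.10), and after the position factor they were 0.05 and -0.12. A pair of Cox7a2 probes that share 48 bases gave 0.27 in row 413 and -0.14 in row 145, and 0.12 and 0.06 after the factor. A pair of Ndufa8 probes that share 40 bases lie in rows 27 and 67 and gave -0.49 and -0.37, and -0.13 and -0.09 after the factor. Probes of different member genes shared a run of at most 14 bases (Atp5g1 and Atp5g2), so the printed 60-base probes have no long stretch in common across genes.

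Across the 20 members with more than 1 unsaturated probe, signs differed in 11, and in 7 after the position factor. For some of them, such as Ndufb2 and Ndufc1, a probe is designed to a clone sequence and may read another transcript. The median gap between a gene's highest and lowest probe was 0.302 on the log2 scale, and 0.09 after the factor. For Cox4nb, now named Emc8, the probe in row 65 gave -0.34 and the one in row 504 gave 0.33. For Ndufa1, the probe in row 412 gave 0.49 and the one in row 91 gave -0.18, which became 0.29 and 9.49e-04 after the factor. Such gaps are of the size of most ratios given above, except that of Cox7a1, which has 1 probe.

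**Figure D5:**
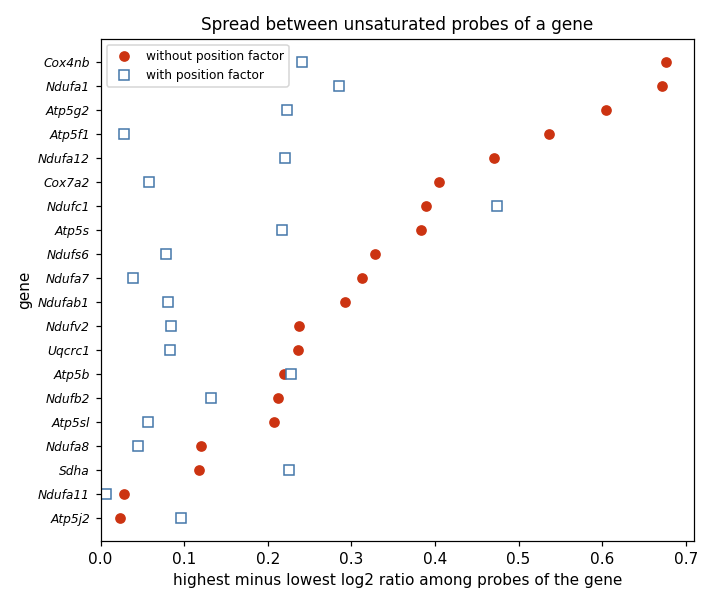
Gap between the highest and lowest log2 ratio among the unsaturated probes of a gene (x axis) for the 20 genes with more than 1 such probe (y axis); red circles are without and blue squares with the scanner's position factor. The gap shrinks for most genes, from a median of 0.302 to 0.09, and grows for a few, such as Ndufc1.

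The array lists 9 further genes of these families under older clone or gene names. Among them, Uqcr10, a small complex III subunit, was 0.35 and 0.48 (0.41 ± 0.09, adjusted p = 5.22e-07; 0.31 after the position factor), and Atp5md, a small ATP synthase subunit, was -0.24 ± 0.03 (adjusted p = 6.12e-04; 0.00 after it). The assembly factor genes Ndufaf3, Ndufaf4, Ndufaf5, Ndufaf6 and Ndufaf7 were called higher in the first set, at 0.26 to 0.61, where 23.7% of all unsaturated genes were. In the same order, they were 0.04, 0.36, 0.12, 0.03 and 0.09 after the position factor. Atp5mpl (0.05) and Ndufv3 (-0.01) were not called. None of the 9 was called the same way in all 3 sets.

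Related genes outside the rule were described from lists of the same pathway. For each list below, the shares over all unsaturated genes were 23.7% called higher, 27.7% called lower, 5.41% that rose and 2.47% that fell. Of 22 unsaturated genes for assembly of the complexes and copper delivery, 8 were called higher and 3 lower, and 0 rose or fell. Of 16 for mitochondrial biogenesis, 5 were called higher and 6 lower, and 0 rose or fell. Of 19 electron carriers, quinone synthesis enzymes and exchangers, 9 were called higher and 8 lower, and 2 fell.

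The genes that fell were Vdac1 and Cyct. Vdac1, the channel of the outer mitochondrial membrane, read 12332 and 10469 units with LMO2 siRNA against 39937 and 32205 with control, and its log2 ratio was -0.68 and -0.66 (-0.67 ± 0.02, adjusted p = 3.11e-11; -0.51 after the position factor and -0.48 in processed signals). Cyct, the testis form of cytochrome c, was dim and fell by 0.19 ± 0.01 (adjusted p = 0.00451). Of 15 citric acid cycle genes, 5 were called higher and 5 lower, and Idh2, the mitochondrial NADP-dependent isocitrate dehydrogenase, rose by 0.48 ± 0.03 (adjusted p = 2.17e-08), from a probe at 185 and 176 units against 206 and 201.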

How the data were processed

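Total RNA of the control arm (Cy5) and the LMO2 siRNA arm (Cy3) was hybridised together on each of 2 Agilent arrays, per the labels. Agilent Feature Extraction 9.1.3.1 read the spots, per the file headers. The deposited files hold the intensity of each spot, as mean signal, as local background and after the scanner software had subtracted background and corrected position and dye. They also hold, per the file headers, the ratio by which that software scaled each channel for position. The log10 ratios in the deposited files are control over LMO2 siRNA, and the table of the series held the same log10 values within 0.005 at all 45018 spots of each array, with a median of 0. The sources used here do not give the genome build behind the array design.

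Here, limma 3.58.1 under R 4.3.3 corrected the background by the normexp method (offset 50), followed by loess within each array, for which control spots had weight 0, and conversion to log2 of LMO2 siRNA over control. The 1639 control spots were then dropped and repeated spots of a probe averaged. Of 41174 probes, 24737 had at least 1 channel well above background on both arrays, and the brightest of these stands for its gene. Genes outside the rule took their RefSeq name where the accession matched (24844 probes; assembly GRCm38.p6). lmFit and eBayes tested each gene, with Benjamini-Hochberg adjustment over 14315 genes, and the code was tested on simulated data. Outlier-flagged spots were kept. Both arrays share 1 slide, so slide could not be tested as a batch.

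The members, the related lists, the cell type markers and the rule over 3 value sets were chosen with earlier results of these data known. Named members are those that rose or fell, up to 4 others per complex with the largest ratios, the isoform groups, the complex I core, the Sdh genes and saturated members; named related genes are up to 3 per list that rose or fell. Of the complex I core, 1 gene is counted but not reported here. Any other gene was named with its values in view. The alternatives varied background correction, offset, normalization, position, filters, saturated and flagged spots, probe summaries, variance priors, the source of the ratios, a 1.5-fold minimum, membership and the arrays used.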

Additional observations from a re-analysis of the deposited data

How the results depend on the processing

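Cox7a1 stayed called higher in every fit tried, at log2 0.34 to 1.11. Uqcr turned with median centring and missed the threshold in the ratios of the series itself (0.42, adjusted p = 0.0501, limma). Under the rule over 3 sets, Uqcr also dropped out with saturated spots left out, the mean over probes and the brightest unsaturated probe. Cox8c dropped out where both channels had to be well above background. The limits lie in 2 arrays of 1 dye orientation, in the drift with row and in saturated control signals. Median centring in place of loess moved the median of all unsaturated genes to -0.41 and that of the members to -0.66. With it 3 members were called higher and 60 lower, where 425 and 9237 of all 14315 measured genes were. Median centring gave complexes I to V -0.65, -0.51, -0.9998, -0.32 and -0.68. It reversed Atp5g1 (-0.68), Atp5g2 (-0.17), Atp5j (-0.38), Atp5k (-0.28), Cox6b1 (-0.30), Cox6b2 (-0.32), Cox6c (-0.22), Cox7a2 (-0.48), Ndufa1 (-0.29), Ndufa3 (-0.27), Ndufs1 (-0.41), Ndufs7 (-0.59), Sdha (-0.42), Sdhc (-0.46), Sdhd (-0.57), Uqcr (-0.49) and Uqcrfs1 (-0.70). With the position factor 3 were called lower, complexes II to V had medians of 0.11, 0.0920, 0.18 and 0.17, and Ndufv1 (0.0764), Sdhb (0.0785) and Uqcrc2 (0.0920) reversed. With processed signals 3 were called higher and 0 lower, where 973 and 488 of all 14315 measured genes were. The values of the series itself gave 2 higher and 0 lower, where 898 and 425 of all measured genes were. In both, complexes II, III and V had medians of 0.13, 0.11 and 0.17, and Ndufv1 (0.0916 and 0.0915), Sdhb (0.0713 and 0.0714) and Uqcrc2 (0.11) reversed. Offset 10 gave complex V -0.0038. Without a filter 0 members rose (0 genes of the whole array did) and complex IV had 0.0593; with both channels well above background 6 rose (11.4% of all unsaturated genes did) and complex IV had 0.17. Trended eBayes gave 13 that rose and 2 that fell, Ndufb6 and Ndufs3, against 13.8% and 12.5% of all unsaturated genes. A 1.5-fold minimum on the ratio left 1 called higher, 0 lower and 1 that rose, Cox7a1. Of all 14315 measured genes it left 544 higher and 256 lower, and 1.83% of the unsaturated ones rose. Complex V had 0.0906 without saturated spots. The mean over probes gave complexes III, IV and V -0.12, 0.0749 and 0.0522, and the brightest unsaturated probe gave III -0.28 and V 0.0522. Current symbols gave complex III -0.0902, and subunits alone gave complex V 0.0522. Each array alone gave medians from 0.15 to 0.20 for complex II, 0.13 to 0.25 for complex IV and -0.0260 to 0.0071 for complex V, with no calls. Of the named genes' values under alternatives, 407 kept direction and side of the threshold, 90 lost it, 4 gained it and 26 reversed, 17 of them under median centring, which shifts all genes; 8 of those 17 still lay above the median of all genes there. The rule over 3 sets has no value for alternatives that are themselves 1 of the sets or the series' own table. The causes were not tested. The ratios already pair both arms within each array. Beyond that, no paired analysis was possible because the arrays form 1 group.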
